A study of Mus musculus with 32 samples.

Results

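Transcripts of 36 genes that cells use to copy their DNA and to divide were followed in sorted mouse intestinal stem cells. The genes were found by matching the listed symbols to gene identifiers, out of 54418 identifiers in the deposited table. They were described as 16 DNA replication genes and 20 mitosis genes. Of the 36, 33 passed the filter on low counts and were tested among 5872 genes, 15 for replication and 18 for mitosis. The other 3 were Ccne1, Bub1 and Plk1, with 0 to 4, 1 to 14 and 1 to 10 counts per library.

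The study compared a control and a high-fat diet in intestinal stem cells of mice with and without alterations of Ppara and Ppard, nuclear receptors for fatty acids. Crypt cells were stained with an antibody to CD326 (Epcam, an epithelial surface protein) and the dye DAPI, and cells with high GFP were sorted. Polyadenylated RNA was measured by a 3' digital gene expression protocol, in which reads fall near the end of a transcript. The 32 libraries form 8 groups of 4. Wild-type mice (WT), mice labelled Ppard-fl/fl (PparD), mice labelled Ppara-null (PparA) and mice with both alleles (PparDA) received either the control or the high-fat food. All carry the strain label C57BL6, and the design text calls the mutants knockouts. No source used here gives the gene that drives GFP, any Cre that would recombine the floxed Ppard allele, how long the food was given or the ages of the mice. Samples of a group are numbered as replicates without a statement that each was 1 animal. The p-values thus reflect how far samples differ, which may be technical in part. By sex-linked transcripts given below, each group holds libraries of both sexes, so its spread is not technical alone. Sex is not a term of the main fit.

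A dividing cell first licenses its replication origins with Cdc6 and the Mcm2 to Mcm7 helicase, then unwinds and copies DNA in S phase with the sliding clamp Pcna and newly made nucleotides. It then builds cyclin B and Cdk1 complexes, condenses its chromosomes, assembles a spindle and separates the chromosomes when the anaphase-promoting complex is activated. Transcription of the first set is classically controlled by E2F factors, and that of the second by NF-Y together with the DREAM and Myb-MuvB complexes at CHR elements. Crypt stem cells that express Lgr5 are known to cycle actively in the healthy intestine, so both sets are normally present in them.

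Promoters are shown because the 2 sets are classically controlled through different elements. RefSeq promoter windows (GRCm38.p6) were found for 29 of the 36 genes, 13 for replication and 16 for mitosis. The 250 bases upstream of each start were searched on both strands for E2F letters, CHR letters and CCAAT, the core bound by NF-Y. The E2F letters were TTTGGCG in its usual form, TTTCCCG as the second form, TTTCGCG as the third form or TTTGCCG as the last form. The CHR letters were TTTGAA in the usual form or TTCGAA in the other form, which is its own reverse complement. E2F letters were in 4 of 13 replication promoters (30.8%) and 3 of 16 mitosis promoters (18.8%), against 5.51% of all 32851 windows. CHR letters were in 2 of 13 (15.4%) and 7 of 16 (43.8%), against 17.1% of all windows. CCAAT was in 8 of 13 (61.5%) and 14 of 16 (87.5%), against 33.8%. Each member counts once, by its window nearest the GENCODE M21 gene start. The background holds every window, also several starts of a gene, so the shares are not on a like basis. Each sequence below is 120 bases, 5' to 3', ending at the annotated start that lies further upstream (RefSeq or GENCODE M21), with matches in capitals. Ccnb1 and Hmgb2 are the 2 genes that passed a test below. Mcm5, Ube2c, Cdk1, Top2a and Mcm6 are genes whose groups separated in some comparison without passing a test, and Mcm6 also holds E2F letters. Mcm5 holds 2 E2F matches in its 250 bases, outside the 120 shown. The choice is not complete. Cenpa also separated and is not shown, and its 120 bases held no match, though its 250 bases held CCAAT. Ccne2 separated too but had no promoter window.
Ccnb1, chr13:100786571-100786690, reverse strand: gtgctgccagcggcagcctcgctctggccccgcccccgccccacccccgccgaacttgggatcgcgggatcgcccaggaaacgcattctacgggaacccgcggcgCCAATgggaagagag
Hmgb2, chr8:57511723-57511842, forward strand: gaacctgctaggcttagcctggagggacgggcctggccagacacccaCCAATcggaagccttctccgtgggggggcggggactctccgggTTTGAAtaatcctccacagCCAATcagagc
Top2a, chr11:99024190-99024309, reverse strand: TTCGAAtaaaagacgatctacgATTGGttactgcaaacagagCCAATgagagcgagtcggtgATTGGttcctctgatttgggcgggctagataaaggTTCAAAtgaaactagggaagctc
Cdk1, chr10:69352939-69353058, reverse strand: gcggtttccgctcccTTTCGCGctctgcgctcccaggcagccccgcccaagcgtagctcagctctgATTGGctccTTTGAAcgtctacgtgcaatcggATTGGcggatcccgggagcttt
Ube2c, chr2:164769778-164769897, forward strand: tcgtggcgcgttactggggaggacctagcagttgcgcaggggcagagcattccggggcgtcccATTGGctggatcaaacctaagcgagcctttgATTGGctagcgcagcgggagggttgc
Mcm5, chr8:75109389-75109508, forward strand: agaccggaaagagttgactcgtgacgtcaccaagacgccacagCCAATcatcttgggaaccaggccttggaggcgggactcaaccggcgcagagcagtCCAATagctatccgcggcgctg
Mcm6, chr1:128359706-128359825, reverse strand: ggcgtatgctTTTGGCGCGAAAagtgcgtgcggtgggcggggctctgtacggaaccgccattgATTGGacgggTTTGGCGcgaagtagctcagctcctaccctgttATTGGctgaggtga
In these stretches Top2a carries CHR letters on both strands beside CCAAT in both orientations. Cdk1 carries E2F letters, CHR letters and the reverse of CCAAT. Hmgb2 carries CHR letters between copies of CCAAT, while Mcm6 carries E2F letters and the reverse of CCAAT, with overlapping E2F matches near its upstream end. A match describes letters only, not a bound site.

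Library totals were 612672 to 724155 counts, a ratio of 1.18, so 1 count is worth 1.38 to 1.63 CPM (counts scaled to a fixed library total of 1000000). Column names number the libraries from 1 to 32, in 4 runs of 8 that each hold every group once. In the mutants the high-fat library follows its control by 1 number in every run, so place and diet cannot be told apart there. Runs 1 and 3 had Xist, which is female-specific, at 489 to 964 CPM, and runs 2 and 4 had the Y-linked Ddx3y at 14.4 to 37.6 CPM. Counts of the targeted genes were too few for a check of genotype, with Ppara at 0 to 5 counts and Ppard at 0 to 7 counts per library. Summed over the 4 libraries of a group, Ppara had 2 to 10 counts in the 4 Ppara-null groups and 6 to 16 in the others. The stem cell marker Lgr5 was at 28.1 to 64.4 CPM and Olfm4 at 7063 to 13050 CPM. Summed markers of 11 lymphocyte genes were at most 15.4 CPM and of 8 stromal and endothelial genes at most 20.1 CPM, with Cd2, Col3a1, Pdgfra and Kdr at 0 in every library. Markers of other epithelial cells were present. Summed levels were 1866 to 39958 CPM for Paneth, 1395 to 7744 CPM for goblet and 1398 to 6392 CPM for enterocyte markers. Stem cell markers summed to 7791 to 13683 CPM.

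All 36 genes were detected, and 35 of them had a count in every library, the exception being Ccne1. Levels are given in CPM for each gene and are not compared between genes. Among the replication genes, the licensing and helicase genes lay at mean levels from 28.0 CPM for Mcm2 to 159 CPM for Mcm7, with Cdc6, which loads the helicase, at 34.1 CPM and the helicase cofactor Gins2 at 110 CPM. Pcna was at 291 CPM. The nucleotide supply genes, which make deoxynucleotides and thymidylate, were at 369 CPM for Tyms, 257 for Rrm1, 193 for Tk1, 139 for Rrm2 and 26.2 for Dut. Of the E-type cyclins, which start S phase with Cdk2, Ccne2 was at 56.4 CPM and Ccne1 at 1.93 CPM. Among the mitosis genes, the cyclin and kinase genes were at 356 CPM for Cks2, 292 for Ccnb1, 191 for Cdk1, 59.1 for Ccnb2 and 14.5 for Ccna2. Hmgb2, a chromatin protein of dividing cells, was at 887 CPM, Top2a, which untangles chromosomes, at 264 CPM, and Mki67, the Ki-67 antigen, at 55.8 CPM. The spindle and checkpoint genes were at 448 CPM for Stmn1, 373 for Birc5, 285 for Nusap1, 84.6 for Aurka, 67.1 for Tpx2 and 21.0 for Aurkb, with Bub1 at 8.68 and Plk1 at 7.88. The centromere genes Cenpf and Cenpa were at 84.4 and 37.7 CPM, and the anaphase genes Ube2c and Cdc20 at 31.7 and 15.7 CPM.

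The ratio of the highest to the lowest group mean differed between members. It was 1.11 for Gins2, the smallest, 1.20 for Tyms, 1.23 for Pcna and Birc5, and 1.47 for Ccnb1. Larger ratios were seen for Aurka (1.55), Ccnb2 and Dut (1.60), Ccne2 (1.66), Nusap1 (1.68), Ube2c (1.94), Cenpa (2.08) and Cdc20 (2.32). Cdc20 had 1 to 23 counts per library. Of the untested genes with few counts, Bub1 had 1.74, Plk1 2.22 and Ccne1 10.2. Within groups, the coefficient of variation was 23.4% for Mcm2, where counting alone would give 23.0%, and 17.0% for Mcm6, where counting alone would give 16.9%. For these genes libraries of a group differed hardly more than counting noise. The mitosis genes Hmgb2 (12.6% against 4.09%), Stmn1 (17.5% against 5.75%) and Nusap1 (18.2% against 7.21%) varied well beyond counting, as did the replication gene Tk1 (20.8% against 8.80%).

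**Figure D1:**
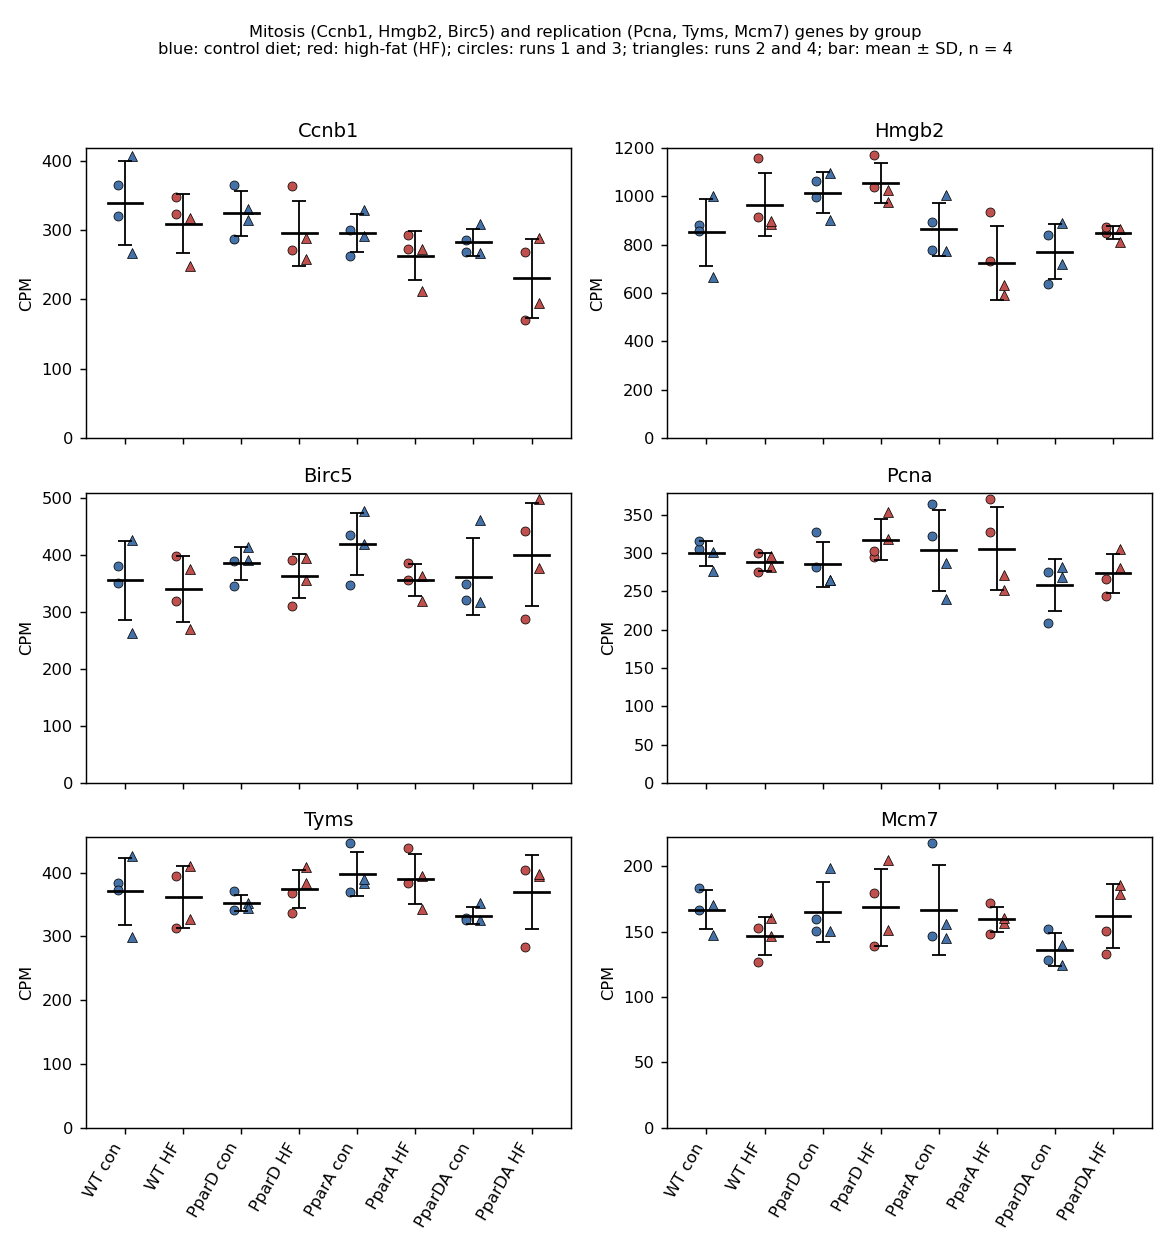
Level (CPM, vertical axis from 0) of 3 mitosis genes (Ccnb1, Hmgb2, Birc5) and 3 replication genes (Pcna, Tyms, Mcm7) in each of the 32 libraries, by genotype and diet. Each point is 1 library, bars are mean ± SD of 4 libraries, and point shape marks the runs; the high-fat PparDA libraries hold the lowest Ccnb1 value, 171 CPM, while the ranges of Birc5 and of Mcm7 overlap between all groups.

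In WT mice the high-fat diet was followed by no called change in either set. With edgeR's quasi-likelihood test and Benjamini-Hochberg adjustment, 0 of 15 replication and 0 of 18 mitosis genes passed an adjusted p of 0.05, against 0.102% of all tested genes. Without adjustment, 1 of the 33 had p under 0.05, against 450 of all 5872. The range of the 4 high-fat libraries lay clear of the 4 control libraries for 1 of 33 genes, Ccne2, against 4.26% of all genes. The median log2 fold change was -0.04 over the replication genes and -0.09 over the mitosis genes, with a median of -0.00 over all genes. Within runs 1 and 3 the replication median was -0.25, and within runs 2 and 4 it was 0.01. The 95% intervals of 11 of 15 replication and 13 of 18 mitosis genes lay within a 1.5-fold change in either direction.

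The 2 genes of each role with the highest CPM show this in single libraries of WT mice, given in order of library number. The helicase subunit Mcm7 was at 183, 147, 166 and 170 CPM with control food and 126, 147, 153 and 160 CPM with high-fat food. Its partner Mcm3 was at 99.0, 134, 103 and 126 CPM on control and 101, 122, 108 and 136 CPM on high-fat. Both genes overlapped between diets. The clamp Pcna was at 305, 277, 316 and 301 CPM on control and 300, 282, 275 and 297 CPM on high-fat. Tyms, which makes thymidylate, was at 384, 300, 373 and 427 CPM on control and 395, 328, 313 and 410 CPM on high-fat. Rrm1, the large subunit of ribonucleotide reductase, was at 219, 211, 307 and 286 CPM on control and 294, 209, 249 and 280 CPM on high-fat. Neither the clamp nor these nucleotide genes separated the diets. Ccne2 was at 66.9, 80.0, 69.5 and 63.0 CPM on control and 57.5, 62.2, 43.9 and 61.0 CPM on high-fat. All high-fat values of Ccne2 lay below all control values, with a log2 fold change of -0.32 ± 0.25 (SE) and an adjusted p of 0.84 in edgeR. Its relative Ccne1 was at 0, 5.82, 3.02 and 2.86 CPM on control and 2.87, 2.96, 1.42 and 0 CPM on high-fat, which is 0 to 4 counts.

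Mitosis genes of WT mice overlapped between the diets in each role. Cks2, which binds cyclin-dependent kinases, was at 369, 297, 287 and 402 CPM on control and 424, 353, 333 and 349 CPM on high-fat. Cyclin B1, encoded by Ccnb1, was at 320, 266, 366 and 407 CPM on control and 348, 249, 323 and 318 CPM on high-fat. Libraries 9 on the control and 10 on the high-fat diet had the lowest Ccnb1 of their groups. Stmn1, which destabilises microtubules, was at 523, 438, 529 and 455 CPM on control and 486, 452, 468 and 501 CPM on high-fat. Birc5 (survivin) of the chromosomal passenger complex was at 351, 263, 381 and 427 CPM on control and 398, 270, 319 and 376 CPM on high-fat. The centromere genes behaved alike in that their ranges overlapped. Cenpf was at 84.3, 59.7, 86.1 and 115 CPM on control and 84.7, 65.2, 87.8 and 69.6 CPM on high-fat. Cenpa, the histone H3 variant of centromeres, was at 40.1, 26.2, 37.8 and 40.1 CPM on control and 35.9, 32.6, 49.6 and 29.8 CPM on high-fat. Ube2c, the ubiquitin-conjugating enzyme of the anaphase-promoting complex, was at 24.1, 23.3, 39.3 and 31.5 CPM on control and 38.8, 16.3, 21.3 and 44.0 CPM on high-fat. Its activator Cdc20 showed the same overlap, at 16.1, 18.9, 12.1 and 21.5 CPM on control and 21.5, 10.4, 17.0 and 9.94 CPM on high-fat. Hmgb2 was at 882, 666, 856 and 1002 CPM on control and 1159, 885, 917 and 900 CPM on high-fat. Top2a was at 268, 180, 245 and 344 CPM on control and 272, 218, 292 and 287 CPM on high-fat. Library 9 was the lowest of the WT control libraries for Ccnb1, Birc5, Stmn1, Cenpf, Cenpa, Ube2c, Hmgb2 and Top2a.

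In the mutants the diet called no member either. The background was 0.0851% of tested genes in PparD, 0.136% in PparA and 0.0341% in PparDA, and 0 of 33 members were called in each. Without adjustment 2, 3 and 5 of the 33 had p under 0.05 in these genotypes, against 293, 340 and 516 of all genes. DESeq2 called 0 members for the diet in all 4 genotypes. By mutant, the 95% intervals of 9 to 13 of 15 replication and 9 to 11 of 18 mitosis genes lay within a 1.5-fold change. In PparD no member's ranges lay apart, against 3.41% of genes, and the mitosis gene with the smallest p was the spindle factor Tpx2, with a log2 fold change of -0.44 ± 0.19 (adjusted p = 0.93, edgeR). In PparA the mitosis genes lay lower on the high-fat diet in 17 of 18 cases, with a median log2 fold change of -0.19, while the replication genes were split 8 higher and 7 lower, with a median of 0.01. The mitosis median was -0.01 in runs 1 and 3 alone and -0.37 in runs 2 and 4 alone. Ranges lay apart for 3 of 33 members in PparA, all lower on high-fat, against 2.96% of genes. They were Cdk1, the kinase that drives entry into mitosis, Cenpa and Top2a. Cdk1 was at 203, 213, 233 and 220 CPM on control and 195, 182, 193 and 178 CPM on high-fat. Cenpa was at 37.9, 34.0, 35.97 and 45.6 CPM on control and 27.6, 29.1, 25.7 and 14.6 CPM on high-fat. Top2a was at 254, 258, 278 and 301 CPM on control and 243, 194, 232 and 209 CPM on high-fat. Although these 3 separated, they did not pass in edgeR, with adjusted p of 0.71 for Cenpa, 0.84 for Top2a and 0.93 for Cdk1.

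In PparDA all 15 tested replication genes had higher values on the high-fat diet, with a median log2 fold change of 0.22 against -0.00 for all genes, and none was called. Ranges lay apart for 2 of 33 members, against 4.29% of genes. Mcm5, a helicase subunit, was at 87.4, 76.3, 73.0 and 100 CPM on control and 112, 121, 117 and 130 CPM on high-fat. Ube2c was at 51.2, 48.5, 51.7 and 47.6 CPM on control and 23.95, 32.9, 26.4 and 39.8 CPM on high-fat. All high-fat values of Mcm5 lay above, and those of Ube2c below, the control values of that genotype. The log2 fold change was 0.51 ± 0.14 for Mcm5 (adjusted p = 0.24) and -0.69 ± 0.26 for Ube2c (adjusted p = 0.41, edgeR). The median over the replication genes was 0.10 in runs 1 and 3 alone and 0.27 in runs 2 and 4 alone.

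Whether the diet effect differed between genotypes was tested directly. No member passed in the difference between PparD and WT, PparA and WT or PparDA and WT, where 0.0511%, 0.153% and 0% of tested genes were called. The last count was 0 of 5872 in edgeR, with 339 genes at an unadjusted p under 0.05, and 2 members were among those. DESeq2 called 1 gene in that comparison, which is no member, and 0 members in the others. Between PparA and WT the smallest member p was that of Dut, which keeps uracil out of DNA, with a difference of log2 fold changes of -0.96 ± 0.34 (adjusted p = 0.47). Dut was at 18.7, 21.8, 18.1 and 28.6 CPM on control and 23.0, 35.6, 29.8 and 39.7 CPM on high-fat in WT. In PparA it was at 34.8, 26.3, 25.02 and 31.4 CPM on control and 17.5, 27.5, 20.9 and 22.6 CPM on high-fat. Dut thus had opposite differences in the 2 genotypes, at 12 to 28 counts per library. For replication genes the median difference of diet effects between PparDA and WT was 0.28, with 12 of 15 higher. The 95% intervals of these differences were wide. For PparDA minus WT those of 4 of 15 replication and 7 of 18 mitosis genes lay within a 1.5-fold change. For PparA minus WT 5 of 15 and 4 of 18 did, with bounds down to 0.318-fold (Dut) and up to 3.04-fold (Ccne2). For PparD minus WT 6 of 15 and 7 of 18 did.

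**Figure D2:**
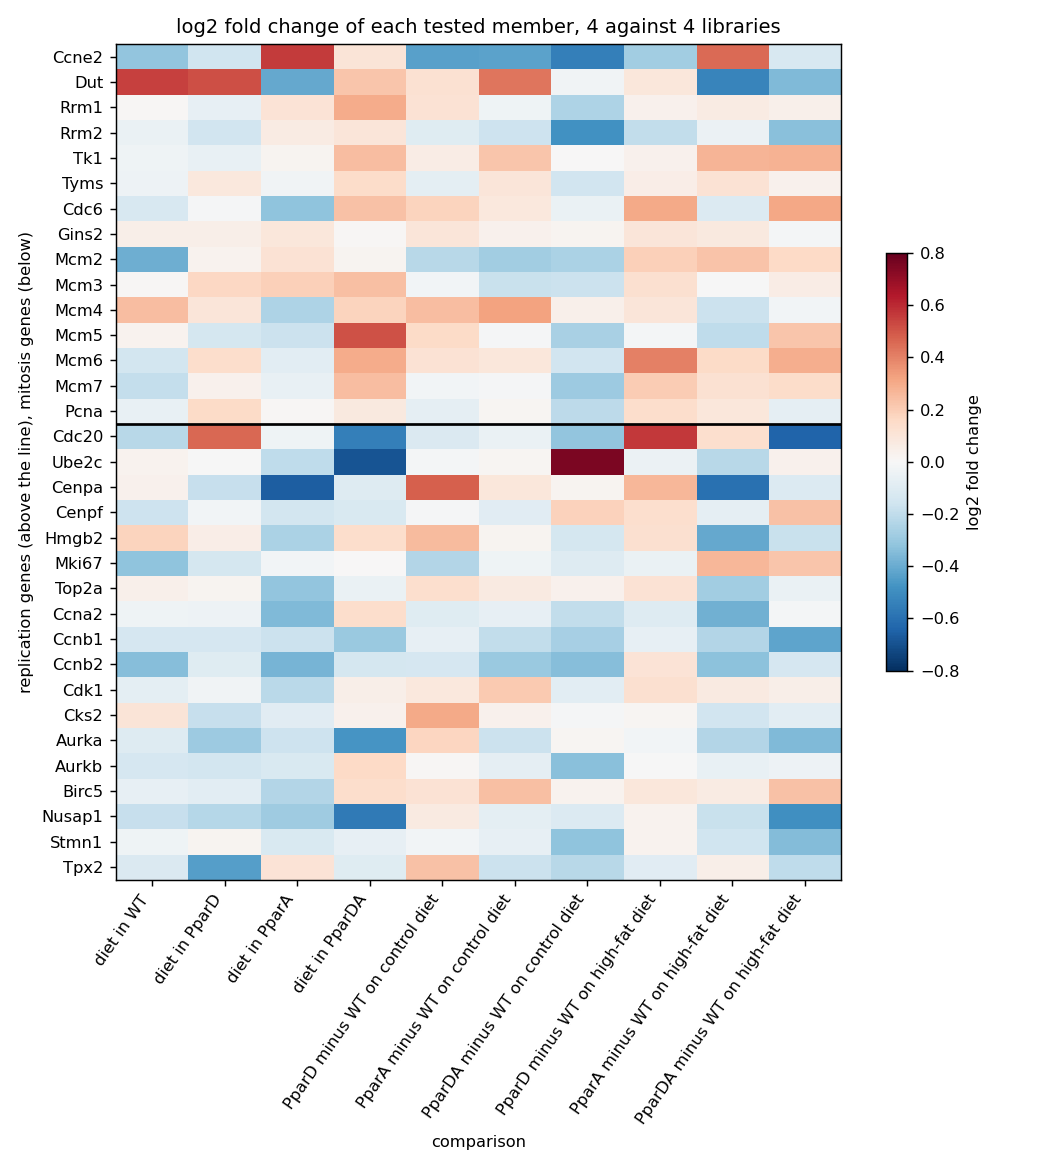
log2 fold change (colour scale) of each of the 33 tested members (rows, replication genes above the line) in the 10 comparisons of 4 against 4 libraries (columns). No cell passed an adjusted p of 0.05; the column for the diet in PparDA is red for all 15 replication genes, and Ube2c in PparDA against WT on the control diet is the deepest red, at 0.75.

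Averaged over the 4 genotypes, the 2 sets had small differences of opposite sign between the diets, and no member was called, against 0.324% of tested genes. The mitosis genes were lower on the high-fat diet in 17 of 18 cases, all but Hmgb2, with a median log2 fold change of -0.10. The replication genes were higher in 12 of 15 cases, with a median of 0.05, and the median of all genes was -0.01. In runs 1 and 3 alone the medians were -0.05 for mitosis and -0.01 for replication, and in runs 2 and 4 alone -0.22 and 0.10, so the sign of the replication median differed between them. In the 2 sets 4 of 18 and 1 of 15 had an unadjusted p under 0.05, against 9.04% of all genes. These were Nusap1, Ccnb1, Ccnb2 and Aurka for mitosis and Mcm3 for replication. Nusap1, which bundles spindle microtubules, had the smallest p, with a mean of 315 ± 51.6 CPM (SD, n = 16 libraries) on control and 255 ± 56.2 CPM on high-fat. Its log2 fold change was -0.32 ± 0.09 (adjusted p = 0.19, edgeR), and 1 of the 16 high-fat libraries lay above the control median. Nusap1 was called, as the 1 member, when the run was added to the fit as a block and when the filter on low counts was dropped. Aurka, the kinase of spindle poles, had -0.26 ± 0.11 (adjusted p = 0.49), and Mcm3 had 0.15 ± 0.07 (adjusted p = 0.52). The 95% intervals bound what these libraries leave possible. All 33 lay within a change of 1.5-fold in either direction, the lowest bound being 0.703-fold for Nusap1 and the highest 1.38-fold for Dut.

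Markers of some other cell types leaned to higher levels on high-fat in the same libraries, with summed levels that overlapped between the diets. In this comparison 0.324% of all tested genes were called. The 10 tested Paneth cell markers were all higher on high-fat, with a median log2 fold change of 0.69 and 0 called. Summed Paneth levels were 4608 to 39958 CPM on high-fat and 1866 to 36619 CPM on control. Paneth markers also differed between runs, with 6 of the 10 called in a test of the run. Their sum averaged 7807 CPM in runs 1 and 3 and 16128 CPM in runs 2 and 4. The 14 enterocyte markers summed to 1714 to 6392 CPM on high-fat and 1398 to 5402 CPM on control, with 6 higher and 8 lower, and 2 of them rose, Fabp1 and Fabp2, which bind fatty acids. The 7 tested goblet cell markers were all higher, with a median of 0.42 and 0 called, and so were the 5 tested enteroendocrine markers, with a median of 0.75 and 0 called. The summed enteroendocrine level was 89.4 to 438 CPM on high-fat and 34.8 to 313 CPM on control. Of the 11 stem cell markers 9 were lower, with a median of -0.12 and 0 called, and their summed level was 9640 to 13627 CPM on high-fat and 7791 to 13683 CPM on control. The part of these cells in the small differences of the 2 sets was not tested. In bulk RNA, fewer cells of a type and less RNA per cell cannot be told apart.

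Libraries labelled Ppara-null had lower levels of 2 mitosis genes. The mean of the 4 Ppara-null groups was set against the mean of the 4 others, 16 libraries on each side. Ccnb1 and Hmgb2 fell, and 2 of 33 members, 0 of 15 for replication and 2 of 18 for mitosis, were called, against 7.58% of tested genes. This share of the members is near the background, in which 445 genes were called, 258 of them higher. Of the 18 mitosis genes 13 were lower, with a median log2 fold change of -0.15, and of the 15 replication genes 12 were lower, with a median of -0.05, while the median of all genes was -0.00. The mitosis median was -0.18 in runs 1 and 3 alone and -0.13 in runs 2 and 4 alone.

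Ccnb1 (ENSMUSG00000041431, chromosome 13, 100778650 to 100786570, GRCm38, reverse strand) encodes the cyclin that activates Cdk1 at the start of mitosis. In PparA it was at 262, 292, 300 and 329 CPM on control and 273, 212, 293 and 273 CPM on high-fat. In PparDA it was at 286, 308, 268 and 268 CPM on control and 171, 194, 269 and 288 CPM on high-fat. In PparD, which keeps Ppara, it was at 287, 315, 365 and 330 CPM on control and 272, 258, 363 and 288 CPM on high-fat, and the WT values stand above. The 16 Ppara-null libraries ranged from 171 to 329 CPM with a median of 273, and the 16 others from 249 to 407 CPM with a median of 319. The ranges overlapped, but 15 of 16 Ppara-null libraries lay below the median of the others. The log2 fold change was -0.25 ± 0.07 (adjusted p = 0.038, edgeR). The adjusted p lay near the threshold. When any 1 library was left out the log2 fold change stayed at -0.28 to -0.22, and the call was lost, with an adjusted p of up to 0.076, when library 2, 5, 8, 13, 14, 16, 17, 18, 19, 20, 23, 25, 26, 27 or 31 was left out. In runs 1 and 3 alone the value was -0.32 (adjusted p = 0.21), and in runs 2 and 4 alone -0.16 (adjusted p = 0.56).

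Hmgb2 (ENSMUSG00000054717, chromosome 8, 57511907 to 57515999, forward strand) encodes a DNA-bending protein enriched in proliferating cells. In PparA it was at 894, 774, 780 and 1008 CPM on control and 935, 591, 734 and 634 CPM on high-fat. In PparDA it was at 839, 888, 639 and 719 CPM on control and 850, 866, 873 and 813 CPM on high-fat. In PparD it was at 1065, 1095, 996 and 904 CPM on control and 1171, 1028, 1041 and 979 CPM on high-fat. The Ppara-null libraries ranged from 591 to 1008 CPM with a median of 826, and the others from 666 to 1171 CPM with a median of 987. Again 15 of 16 Ppara-null libraries lay below the median of the others. The log2 fold change was -0.27 ± 0.07 (adjusted p = 0.0073, edgeR), and the call was kept when any 1 library was left out, with adjusted p of 0.00092 to 0.015. Within runs 1 and 3 it was -0.30 (adjusted p = 0.10), and within runs 2 and 4 -0.24 (adjusted p = 0.20). Hmgb2 has processed copies elsewhere in the mouse genome, and no source used here gives how the estimated counts were divided among such copies.

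The next mitosis genes did not pass. Cenpa had a log2 fold change of -0.34 ± 0.12 (adjusted p = 0.095), with 33.3 ± 10.4 CPM in Ppara-null and 42.0 ± 8.69 CPM in the other libraries (SD, n = 16). Ccnb2, the second B-type cyclin, had -0.27 ± 0.10 (adjusted p = 0.11), and 15 of 16 Ppara-null libraries lay below the median of the others. Nusap1 had -0.24 ± 0.09 (adjusted p = 0.14) and Stmn1 -0.23 ± 0.09 (adjusted p = 0.14, all edgeR). Stmn1 was more spread among Ppara-null libraries, at 413 ± 101 CPM, than among the others, at 482 ± 29.96 CPM. Mitosis genes with values above 0 were Ube2c (0.16 ± 0.13), Mki67 (0.16 ± 0.09), Birc5 (0.09 ± 0.08), Cenpf (0.03 ± 0.09) and Cdk1 (0.01 ± 0.07). Members of the same cyclin B and Cdk1 complex had unlike values, with Cdk1 near 0, and the difference between these genes was not tested. Of the replication genes Rrm2, the regulated subunit of ribonucleotide reductase, had the smallest p, at -0.19 ± 0.09 (adjusted p = 0.26). All 15 replication genes had 95% intervals within a 1.5-fold change in either direction, and 17 of 18 mitosis genes did, the exception being Cdc20 with a lower bound of 0.602-fold.

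**Figure D3:**
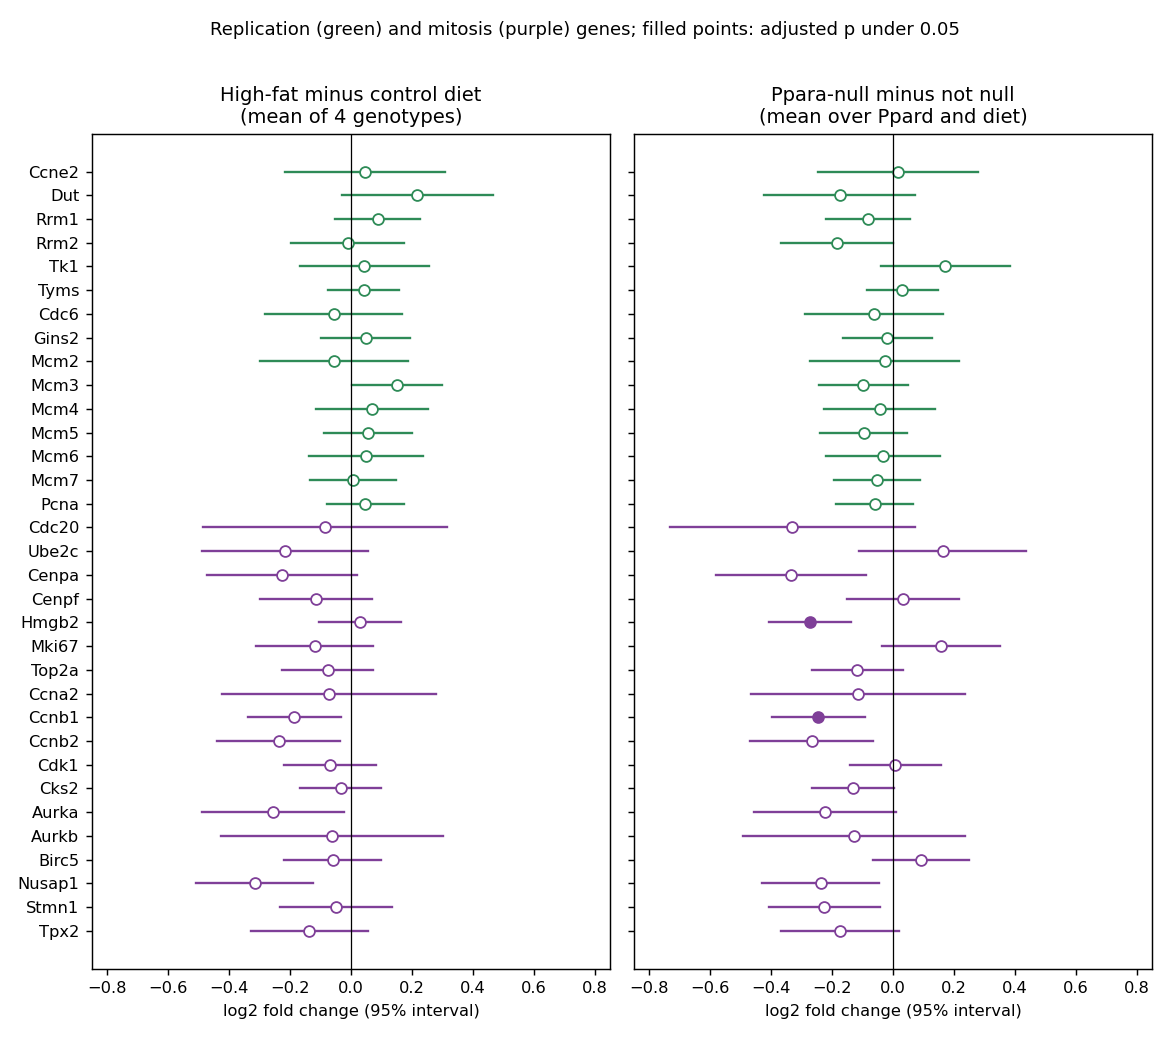
log2 fold change with 95% interval (horizontal axis) of each tested replication gene (green) and mitosis gene (purple), for the diet averaged over genotypes (left) and for Ppara-null averaged over Ppard and diet (right). Filled points passed an adjusted p of 0.05, which are Hmgb2 and Ccnb1 on the right; on the left 17 of 18 mitosis genes lie below 0 with none filled.

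Markers of some differentiated cell types moved with the Ppara-null genotype in the same libraries. In this comparison 7.58% of all tested genes were called. The 14 enterocyte markers were all higher in Ppara-null libraries and 10 rose, among them Apoa1 and Sis, with a median log2 fold change of 1.31. Their summed level was 1415 to 6392 CPM in Ppara-null and 1398 to 4063 CPM in the other libraries. The 7 tested goblet cell markers were all higher and 4 rose, with summed levels of 2332 to 7744 CPM and 1395 to 6054 CPM. Of 10 tested Paneth markers 7 were higher and 1 rose, and summed levels were 2698 to 36619 CPM and 1866 to 39958 CPM. Of 5 tested enteroendocrine markers 4 were higher and 2 rose, Gip and Reg4, with a median of 0.69 and summed levels of 67.2 to 438 CPM and 34.8 to 307 CPM. Of 11 stem cell markers 7 were higher and 1 fell, Tnfrsf19. Their summed level was 9640 to 13683 CPM (mean 10949) in Ppara-null and 7791 to 13627 CPM (mean 11614) in the other libraries. Their part in the lower Ccnb1 and Hmgb2 was not tested.

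Each mutant was also set against WT on each diet, 4 libraries against 4, and no member was called in any of the 6 comparisons by edgeR or DESeq2. On the control diet 0.204% of tested genes were called for PparD, 0.562% for PparA and 1.87% for PparDA. On the high-fat diet 0.017%, 0.749% and 1.57% were called. These comparisons share the WT libraries of a diet. In each, the 95% intervals of 8 to 12 of 15 replication and 7 to 13 of 18 mitosis genes lay within a 1.5-fold change. Ranges lay apart for 1 of 33 members in each of the 6, against 3.88%, 4.07% and 7.82% of genes on the control diet and 3.17%, 6.28% and 7.9% on the high-fat diet. On the control diet they were Cenpa, higher in PparD (42.1, 58.0, 53.2 and 48.7 CPM), Ccne2, lower in PparA (48.5, 55.6, 42.2 and 61.3 CPM), and Ube2c, higher in PparDA. Ube2c had a log2 fold change of 0.75 ± 0.25 (adjusted p = 0.15), from 29.5 ± 7.47 CPM in WT to 49.7 ± 2.02 CPM in PparDA (SD, n = 4). On the high-fat diet they were Mcm6, higher in PparD (60.7, 58.3, 59.3 and 61.6 CPM), Cenpa, lower in PparA, and Hmgb2, lower in PparDA. The smallest adjusted p of a member on that diet was 0.15, for Hmgb2 in PparA, with a log2 fold change of -0.41 ± 0.13, and it passed when library 6 was left out. Ccnb1 in PparDA had -0.42 ± 0.15 (adjusted p = 0.18), and Nusap1 -0.49 ± 0.19 (adjusted p = 0.23, edgeR).

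The mean of the 4 groups with the Ppard-fl/fl label was set against the mean of the 4 others. No member was called by edgeR or DESeq2, against 0.954% of tested genes, and 3 had an unadjusted p under 0.05. The replication genes had a median log2 fold change of -0.02 and the mitosis genes 0.02. The smallest p values were those of Ccne2 (-0.35 ± 0.13, adjusted p = 0.20), Rrm2 (-0.23 ± 0.09, adjusted p = 0.26) and Cenpa (0.29 ± 0.12, adjusted p = 0.28, edgeR). Intervals of all 18 mitosis genes and of 14 of 15 replication genes lay within a 1.5-fold change in either direction.

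Summed per library, the 16 replication genes made up 1661 to 2393 CPM and the 20 mitosis genes 2772 to 4279 CPM. The sums follow the abundant members, so Hmgb2 weighs most in the second. The lowest group mean of the replication sum was that of PparDA on the control diet, at 1779 ± 95.1 CPM (SD, n = 4), and the highest that of PparA on high-fat, at 2088 ± 181 CPM. The other 6 groups lay between 1989 and 2085 CPM, within their spread. The lowest mitosis sum was that of PparA on high-fat, at 3182 ± 404 CPM, and the highest that of PparD on control, at 3988 ± 218 CPM. Ppara-null libraries had 3385 ± 358 CPM and the others 3783 ± 361 CPM (SD, n = 16). The ratio of the mitosis to the replication sum was 1.52 ± 0.10 in PparA and 1.61 ± 0.07 in PparDA on the high-fat diet, and 1.79 to 1.96 as a mean in the other 6 groups. By group mean the ratio was lower on high-fat than on control in PparA (1.79 ± 0.20 on control), PparDA (1.91 ± 0.12 on control) and PparD (1.96 ± 0.10 on control and 1.85 ± 0.16 on high-fat), and higher in WT (1.79 ± 0.18 on control and 1.84 ± 0.20 on high-fat). The 4 high-fat PparDA libraries, at 1.51 to 1.68, lay clear of their controls, at 1.79 to 2.06, while those of PparA, at 1.42 to 1.64, overlapped controls at 1.59 to 2.06. These sums carry no test.

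**Figure D4:**
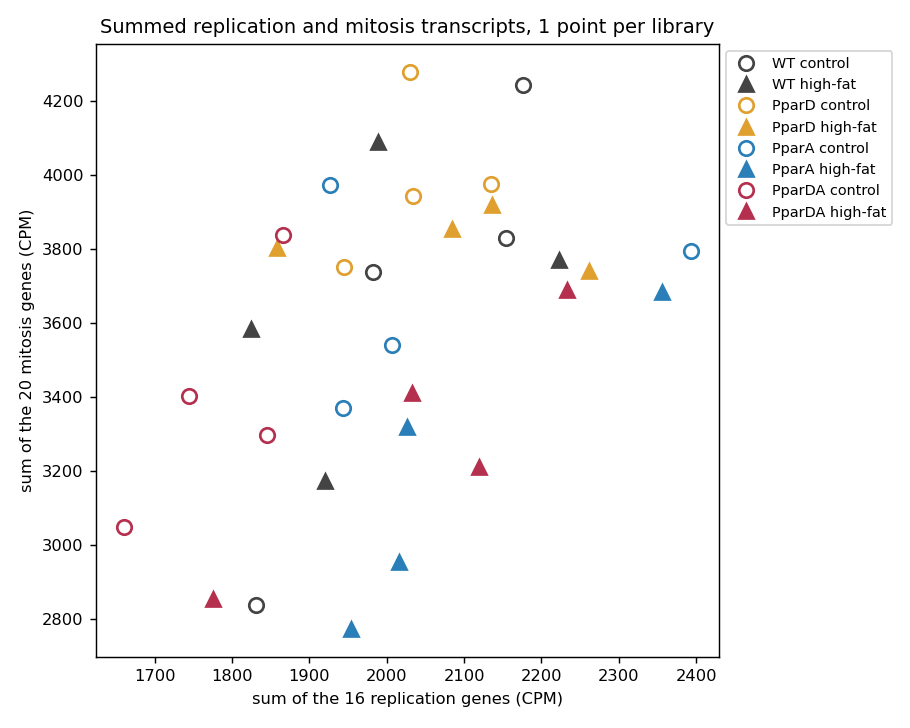
Sum of the 20 mitosis genes (vertical axis, CPM) against the sum of the 16 replication genes (horizontal axis, CPM), 1 point per library; both axes start above 0. Control PparDA libraries (open red circles, 1661 to 1866 CPM) lie to the left, and high-fat PparA libraries (filled blue triangles, 2772 to 3683 CPM) lie low for their replication sum.

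Members varied together within groups more among the mitosis than among the replication genes. After group means were removed, the correlation across the 32 libraries had a median of 0.30 over 153 pairs of mitosis genes, 0.15 over 105 pairs of replication genes and 0.05 over 270 pairs between the sets. The highest within mitosis was 0.83, for Ccnb1 and Birc5. Within replication it was 0.68, for Rrm1 and Tyms, and between the sets 0.85, for Tyms and Cdk1. Pairs share libraries and depth, low genes carry more counting noise, and these values are a description.

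The run of 8 libraries was tested as well, since runs also differ in the sex of the mice by Xist and Ddx3y. No member was called, against 5.25% of tested genes, though 4 of 18 mitosis and 0 of 15 replication genes had p under 0.05, and DESeq2 called 1, Nusap1. Nusap1 had the smallest (adjusted p = 0.071) and Ccnb1 the next (adjusted p = 0.091, edgeR). Ccnb1 averaged 277 ± 51.4, 262 ± 43.3, 318 ± 42.1 and 313 ± 45.2 CPM in runs 1 to 4 (SD, n = 8). Runs 3 and 4 were thus higher than runs 1 and 2 by their means, and this split does not follow Xist.

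Other genes of the same pathways were read beside the members. Of 35 further tested genes of the fork and of licensing (polymerases, clamp loader, origin recognition and chromatin assembly), 0 were called for the diet averaged over genotypes, with 24 higher and a median log2 fold change of 0.03. Of 50 further mitosis genes 0 were called, with 35 lower and a median of -0.06. In the Ppara-null comparison 2 of the 35 and 2 of the 50 were called, both shares below the 7.58% of all tested genes. Of the 35 these were Slbp (1.09 ± 0.32, adjusted p = 0.031), which binds histone mRNA stem-loops, and Rpa3 (-0.24 ± 0.07, adjusted p = 0.041), a subunit of the single-strand DNA binding complex. The Slbp value rests on 5 of 16 Ppara-null libraries at 179 to 278 CPM. Its median was 49.7 CPM in Ppara-null and 51.3 CPM in the other libraries. Among the 50, Ect2 (-0.42 ± 0.11, adjusted p = 0.012), a cytokinesis factor, and Cdkn3 (-0.32 ± 0.09, adjusted p = 0.030, edgeR), a phosphatase of cyclin-dependent kinases, fell. Ect2 was at 87.0 ± 18.2 CPM in Ppara-null and 117 ± 24.3 CPM in the other libraries (SD, n = 16). Of 12 tested transcription factors of the cell cycle and 4 tested CDK inhibitors and exit genes, 0 were called in any of the 16 comparisons.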

How the data were processed

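Polyadenylated RNA of sorted GFP-high cells was measured in 32 libraries, 8 groups of 4. The authors deposited expected counts, estimates per gene and library rounded to whole numbers, and log2(CPM + 1) values; both units come from the file headers and values. Tools listed in the submitters' processing notes are Salmon (1.1.0), R (4.0.2) and edgeR (3.30.2), with build mm10; which tool did which step is not recorded. No source used here states the annotation release, strand use or molecular identifiers, so counting error is given as if reads were independent.

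Column names give a library's group and number but no replicate number. Of 54418 identifiers 54096 were matched to GENCODE M21 symbols. Genes passing filterByExpr (minimum count 10, minimum total 15, 8 groups) were kept, 5872 in all, holding 97.1 to 97.7% of counts. With TMM factors (0.938 to 1.08), edgeR 4.0.16 in R 4.3.3 was run on all 32 libraries together by quasi-likelihood, each group having its own coefficient, with a common biological coefficient of variation of 21.7%. Tests were two-sided, adjusted by Benjamini-Hochberg over all tested genes within each of 16 comparisons and a test of the run, and called at 0.05. An SE is the log2 fold change divided by the square root of F. CPM values use TMM factors, except Xist and Ddx3y, which use library totals.

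The members and gene lists were chosen with earlier results of these data known. All 36 members are named by role; single libraries are given for called genes, for the 2 most abundant genes of each role in WT, and for genes whose groups did not overlap. From other lists called genes are named; Lgr5, Olfm4 and the marker genes at 0 were picked after their values were seen. Alternatives covered size factors, the filter, DESeq2 1.42.0, a robust prior, the run as a factor, runs by sex, left-out libraries, fits of only the groups compared, and limma 3.58.1 on the deposited log2 values with pseudocounts of 1 and 0.25. The method was tested on simulated data.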

Additional observations from a re-analysis of the deposited data

Results flagged for a closer look

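In each group of 4 libraries and each tested member, and in the 2 sums, the highest or lowest library was set against the other 3 by Dixon's criterion. Of 280 such groups 18 stood out, where chance gives about 14, or 1 in 20.

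Among the replication genes, Mcm4 was low in library 11 of PparD on control (69.6 CPM, others 90.5 to 94.3) and high in library 6 of PparA on high-fat (97.4 CPM, others 67.8 to 71.1). Mcm7 was high in library 21 of PparA on control (217 CPM, others 145 to 156), and Rrm2 in library 31 of PparDA on control (151 CPM, others 96.4 to 106). Tyms was high in library 15 of PparDA on control (352 CPM, others 325 to 328) and low in library 8 of PparDA on high-fat (283 CPM, others 395 to 404). Gins2 was high in library 27 of PparD on control (121 CPM, others 110 to 111). Dut was low in library 24 of PparDA on high-fat (18.6 CPM, others 26.7 to 27.6). Cdc6 was high in library 11 of PparD on control (50.8 CPM, others 32.5 to 34.8) and low in library 4 of PparD on high-fat (28.9 CPM, others 40.1 to 41.0).

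Among the mitosis genes, library 9 of WT on control was low for Cdk1 (131 CPM, others 201 to 212) and Cenpa (26.2 CPM, others 37.8 to 40.1). Cdk1 was low in library 19 of PparD on control (189 CPM, others 202 to 203), Cenpf in library 15 of PparDA on control (86.6 CPM, others 100.4 to 102) and Tpx2 in library 3 of PparD on control (50.8 CPM, others 93.3 to 98.6). Ube2c was high in library 29 of PparA on control (38.5 CPM, others 26.3 to 27.3). Hmgb2 was high in library 2 of WT on high-fat (1159 CPM, others 885 to 917), and Stmn1 in library 11 of PparD on control (505 CPM, others 470 to 473).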

How the results depend on the processing

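Counts of called members stayed at 0 in the 4 diet comparisons, the 3 differences of diet effects, 5 of the 6 comparisons with WT and the Ppard-fl/fl average under every alternative run. For the diet averaged over genotypes, 1 member (Nusap1) was called with no filter on low counts and 1 (Nusap1) with the run as a replicate block. For Ppara-null, 4 were called with no filter (adding Nusap1 and Stmn1), 0 in runs 1 and 3 alone and 0 in runs 2 and 4 alone, where fewer libraries are tested, and 1 to 4 when 1 library was left out. Without library 32 the 4 were Ccnb1, Hmgb2, Cenpa and Stmn1. For PparA against WT on high-fat, leaving out a library gave 0 to 1. For the run, 1 member was called with no filter, with DESeq2 and with a robust prior (Nusap1 each time), 2 with limma on log2(CPM + 1), 1 with limma on log2(CPM + 0.25), and 0 to 2 without 1 library.

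With no filter the number of all genes called rose from 445 to 712 for Ppara-null, from 19 to 148 for the diet average and from 6 to 99 for the diet in WT, and in runs 1 and 3 alone it was 73, 7 and 5. Alternative medians were set against the SD between libraries, 0.11 log2 for replication and 0.18 for mitosis. This SD exceeds the size of most medians, so a change of sign can pass as no move. The replication median of the diet average, 0.05, ranged from -0.01 to 0.10 without counting as moved. Of 762 alternative medians of the 2 sets, 753 moved by less than the SD. The other 9 were fits within runs, such as the mitosis median of PparDA against WT on control, -0.30 in runs 1 and 3 and 0.13 in runs 2 and 4; the cause was not tested.

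The columns carry no replicate number, so the run of 8 was used as the block. Sample titles list the replicates with the groups in the same order as the columns, though no label links a column to a title. Libraries of the same run correlated at -0.03 to 0.45 after group means were removed. Of the 32, 31 matched their own run best, which is a hint from the data and not a statement of the design. The block called more genes in 16 of 16 comparisons, 526 for Ppara-null and 44 for the diet average, and left Ccnb1 (adjusted p = 0.011) and Hmgb2 called. Depth limits the low members: Ccne1, Bub1, Plk1, Cdc20 and Ccna2 had at most 23 counts in any library, so modest differences in them were not detectable.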

Other observations

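Slbp was chosen here after its values were seen. Slbp, whose product binds the stem-loop of replication-dependent histone mRNA, was the replication gene outside the member list with the largest value in the Ppara-null comparison. Its level was 179 to 278 CPM in 5 libraries, which are numbers 7 and 15 of PparDA on control, 13 of PparA on control, 24 of PparDA on high-fat and 30 of PparA on high-fat. In the other 27 libraries it was 28.7 to 68.5 CPM. All 5 high libraries were Ppara-null, out of 16 such libraries, and they fall in both genotypes with that allele and in all 4 runs. The median of the 16 Ppara-null libraries was 49.7 CPM against 51.3 CPM in the 16 others, so the fitted log2 fold change of 1.09 rests on those 5 libraries.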
